A study of Mus musculus with 83 samples.

Results

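The insulin-like growth factor (IGF) system was followed through 7 of the 21572 genes in the deposited counts table, taken by name: the ligand Igf1, its receptor Igf1r, the binding proteins Igfbp2, Igfbp3, Igfbp4 and Igfbp5, and the protease Pappa. Each of the 83 libraries came from 1 cultured mouse ovarian follicle of wild-type CD-1 mice. Follicles were used fresh or after vitrification, which is cryopreservation by cooling to a glass. They were grown for 8 days in 0.5% alginate beads in medium with 10 mIU/ml recombinant FSH and 5 µg/ml insulin-transferrin-selenium, so insulin, a ligand of the related insulin receptor, was supplied throughout growth. Follicles of 300 to 350 µm were then released from the beads and moved to medium with 10% serum, 1.5 IU/ml human chorionic gonadotropin (hCG, the ovulation trigger), 10 ng/ml epidermal growth factor and 10 mIU/ml FSH. Both kinds of follicle had the same culture and trigger, and every group after 0 h had received hCG. The fresh groups held 18 follicles at 0 h, 6 at 1 h, 7 at 4 h and 4 at 8 h after hCG. The vitrified groups held 15, 14, 7 and 12. The question of the design was how the response to the trigger compares between the 2 kinds of follicle.

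IGF1 made by granulosa cells signals through the receptor IGF1R and amplifies the response of these cells to FSH. Binding proteins hold the ligand in the extracellular space and limit its access to the receptor, and PAPPA cleaves some of them, IGFBP4 and IGFBP5 among them, which frees the ligand. In the ovary the balance of ligand, binding proteins and protease is known to change as follicles are selected and ovulate.

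The libraries lay on 3 plates, as their names give them. All 0 h libraries were on a plate of their own, so the change from 0 h to 1 h cannot be told apart from a plate difference. A shared plate held the fresh follicles of 1, 4 and 8 h with 5 vitrified follicles at 1 h, 7 at 4 h and 3 at 8 h. The third plate held vitrified follicles alone, 9 at 1 h and 9 at 8 h. Later times in vitrified follicles refer to the shared plate unless the vitrified-only plate is named. Libraries held 682200 to 6504588 counts, and all 7 members passed the low-count filter that left 11889 genes. The 10 granulosa markers were detected in every group, with a summed level of 40518 to 104519 CPM (counts scaled to library size with TMM factors) in single libraries at 0 to 4 h and of 13293 to 24881 CPM at 8 h. The 10 oocyte markers were detected in every group too, at a summed 2.36 to 256 CPM, and the 8 endothelial markers summed to 0.54 to 137 CPM. The labels do not say which follicles shared an animal or a culture, so the p-values measure the spread between these follicles. A whole follicle is a mixture, and fewer cells of a type cannot be told apart from less RNA per cell.

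The members lie on 5 mouse chromosomes of GRCm38 (mm10). Igf1 spans chr10:87858265-87937042 on the plus strand, Igf1r spans chr7:67952827-68233668 on the plus strand, and Pappa spans chr4:65124174-65357509 on the plus strand. Igfbp3 is at chr11:7206086-7213923 on the minus strand and Igfbp4 at chr11:99041244-99054392 on the plus strand. Igfbp2 (chr1:72824503-72852474, plus strand) and Igfbp5 (chr1:72857932-72874884, minus strand) are neighbours with 5457 bp between them. The antisense gene Igf1os overlaps Igf1 but shares no exonic base with it. Promoter sequences, from RefSeq on GRCm38.p6, were at hand for 6 of the 7 members, Pappa being the exception. The 250 bases before the RefSeq start are shown for Igf1r, whose counts rose after hCG, and for Igfbp2 (the first of its 2 entries) and Igfbp4, whose counts fell between 1 and 4 h. Capitals mark a GC box, spelled GGGCGG, in the first pair of sequences. In the last they mark a TATA box, spelled TATAAA. Both were searched on both strands, and the windows are chr7:67952007-67952256, chr1:72824230-72824479 and chr11:99040994-99041243, all on the plus strand.
Igf1r: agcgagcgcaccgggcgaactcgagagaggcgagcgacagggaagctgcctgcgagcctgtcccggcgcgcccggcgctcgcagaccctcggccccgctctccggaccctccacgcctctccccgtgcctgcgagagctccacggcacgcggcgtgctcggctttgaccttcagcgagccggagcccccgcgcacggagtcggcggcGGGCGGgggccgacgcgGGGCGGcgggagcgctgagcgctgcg
Igfbp2: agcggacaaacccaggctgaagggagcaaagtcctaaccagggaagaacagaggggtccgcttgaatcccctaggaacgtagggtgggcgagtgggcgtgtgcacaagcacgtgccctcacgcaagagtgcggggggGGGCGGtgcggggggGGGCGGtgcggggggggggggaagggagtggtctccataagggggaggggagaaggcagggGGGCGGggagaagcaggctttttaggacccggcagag
Igfbp4: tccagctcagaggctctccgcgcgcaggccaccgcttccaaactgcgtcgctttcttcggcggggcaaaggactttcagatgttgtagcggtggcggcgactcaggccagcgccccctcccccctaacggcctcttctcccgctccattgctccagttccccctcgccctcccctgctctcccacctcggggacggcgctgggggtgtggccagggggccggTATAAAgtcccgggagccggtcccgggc
The window of Igf1r had a GC content of 77.6% and held 2 GC boxes, that of Igfbp2 had 67.2% and held 3, and that of Igfbp4 had 69.2% and held 1 TATA box and no GC box. The second Igfbp2 entry, not shown, had a GC content of 56.4% and no GC box. The windows of Igf1, Igfbp3 and Igfbp5 held no GC box either. Over all 32851 RefSeq promoter windows of this length the median GC content was 52.4%, 32.7% held GGGCGG and 12.4% held TATAAA. The half-site bound by cAMP-responsive factors, TGACG, was in none of the 3 windows shown and in 17.8% of all windows.

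Per transcript length, Igfbp3, Igfbp4 and Igfbp5 were the most abundant transcripts of the system in fresh follicles at 0 h, and the receptor and protease the least. These levels are in TPM (transcript abundance per length, summing to the same total in every library), which the deposited table holds on a log2 scale. In fresh follicles at 0 h the mean was 45.2 ± 70.7 TPM for Igfbp3 (SD, n = 18), 15.5 ± 14.4 for Igfbp4, 15.2 ± 11.7 for Igfbp5, 9.14 ± 3.29 for Igf1, 3.17 ± 1.17 for Igfbp2, 0.18 ± 0.0478 for Igf1r and 0.134 ± 0.0789 for Pappa. The ranges of the first 5 overlapped between neighbours in this order, and Igfbp4 was above Igfbp5 in 10 of 18 libraries. Igfbp2 was above Igf1r in all 18 libraries with no overlap, and Igf1r was above Pappa in 14. At 8 h Igfbp5 led in fresh follicles, with 53.8 ± 11.1 TPM (SD, n = 4), above Igfbp3 in 4 of 4 libraries. It also led in vitrified follicles at 8 h, with 76.3 ± 63.8 TPM on the shared plate (SD, n = 3) and 93.2 ± 12.0 on the vitrified-only plate (SD, n = 9). Pappa was above Igf1r in all 4 fresh libraries at 8 h and in all 3 vitrified libraries of the shared plate, the reverse of the order at 0 h, whereas Igf1r was above Pappa in all 9 libraries of the vitrified-only plate. TPM shares are taken of a total in which the repeat-rich gene model Gm10800 held 4.02 to 53.0% (median 22%), so a level moves with that share too.

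**Figure D1:**
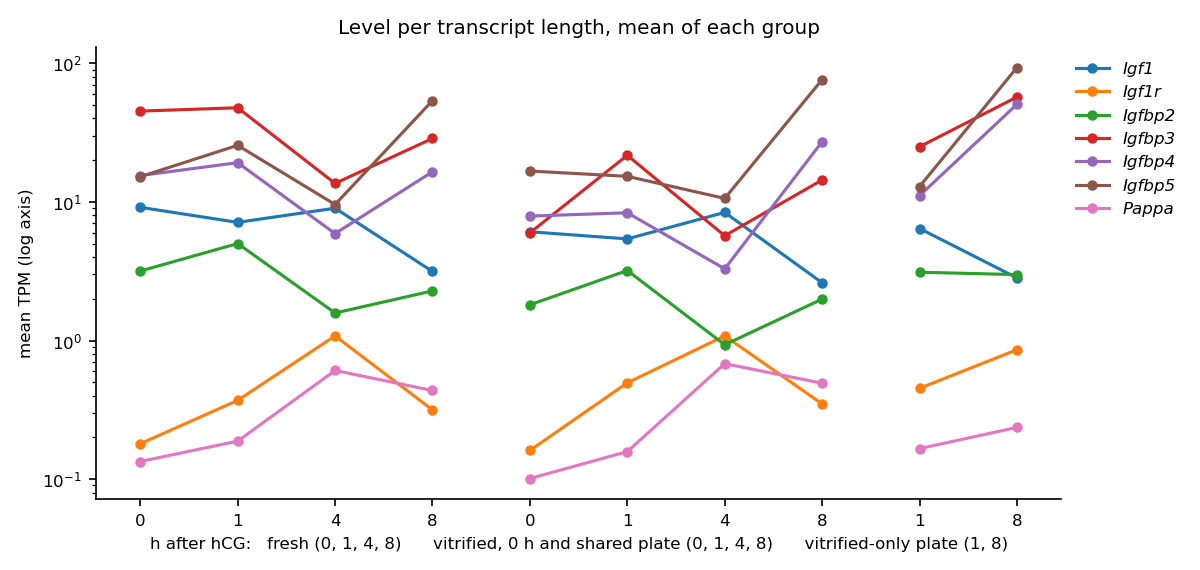
Mean level of each member per transcript length (TPM, log axis) against hours after hCG, for fresh follicles, vitrified follicles on the 0 h and shared plates, and the vitrified-only plate. Each point is the mean of 1 group, and Igfbp5 ends highest at 8 h in all 3 series while Igf1r and Pappa are among the 3 lowest at every time.

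All counts of calls below come from edgeR's quasi-likelihood test over 11889 genes, with an adjusted p under 0.05, and changes are log2 fold changes with their standard error. Between 0 h and 1 h 4 of the 7 members were called higher in fresh follicles and none lower, against 19% of all genes higher and 23.1% lower. In vitrified follicles 4 were higher and none lower, against 21.5% and 22%. From 1 h to 4 h 2 members were higher and 3 lower in fresh follicles (all genes 21.9% and 24.5%), and 2 higher and 2 lower in vitrified follicles (20.6% and 25.9%). From 4 h to 8 h 1 was higher and 3 lower in fresh follicles (20.8% and 15.7%), and 2 higher and 3 lower in vitrified follicles (22% and 15%). Between 1 h and 8 h, none was higher and 3 were lower in fresh follicles (26.2% and 23.5%), as in vitrified follicles on the shared plate (26.2% and 23.9%), and 2 were higher and 2 lower on the vitrified-only plate (32% and 27.4%). The median log2 change of the members from 1 h to 4 h was -1.4 in fresh and -0.71 in vitrified follicles, against -0.03 and -0.11 over all genes. Scaling by total counts alone shifted the median of all genes from 0.12 to 0.75 between 4 h and 8 h in fresh follicles, from 0.17 to 0.73 in vitrified follicles, and from -0.11 to -0.6 between 0 h and 1 h in fresh follicles, so changes into 1 h and 8 h depend on the scaling by that much.

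**Figure D2:**
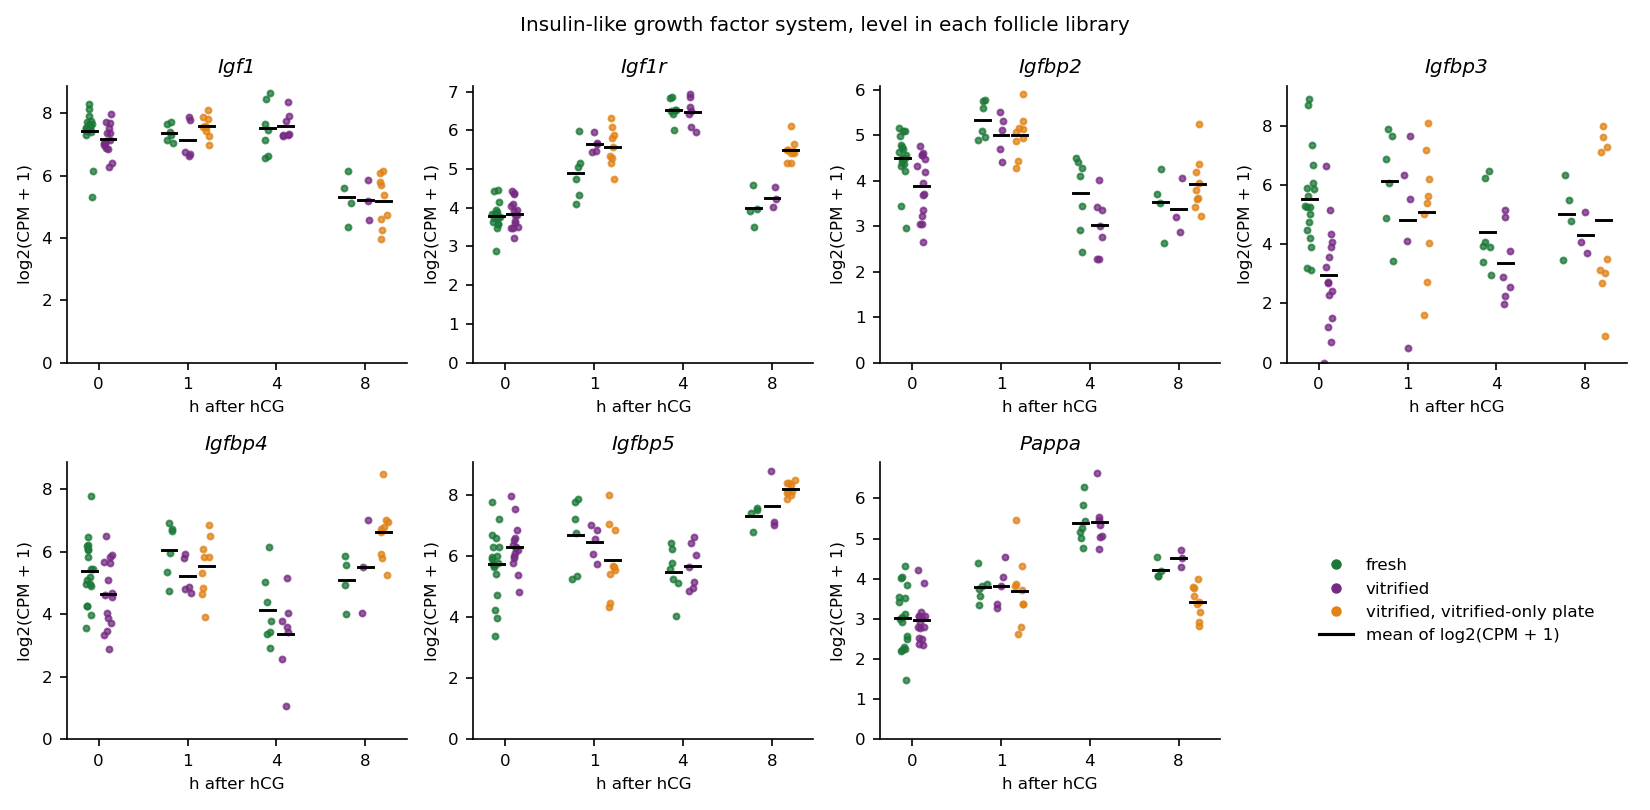
Level of each member in each follicle library, as log2(CPM + 1), against hours after hCG, with fresh follicles, vitrified follicles and vitrified follicles of the vitrified-only plate in separate colours; bars are means. Igf1 drops at 8 h, Igf1r and Pappa peak at 4 h, Igfbp2 peaks at 1 h, and Igfbp3, Igfbp4 and Igfbp5 scatter widely at 0 h.

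Igf1, the ligand, had no called change up to 4 h and then fell by 8 h in both kinds of follicle. In fresh follicles it ran from 38.7 to 311 CPM at 0 h with a median of 184 (n = 18), from 130 to 208 at 1 h with a median of 162 (n = 6), and from 93.5 to 399 at 4 h with a median of 177 (n = 7). At 8 h the 4 fresh libraries held 19.6, 33.7, 48.0 and 69.4 CPM, all below the lowest library of 4 h. The fall from 4 h to 8 h was -2.28 ± 0.40 in log2 units (adjusted p = 2.41e-06). In vitrified follicles Igf1 ran from 77.2 to 250 CPM at 0 h (median 138, n = 15), held 97.8, 102, 108, 219 and 236 CPM in the 5 libraries at 1 h, and ran from 154 to 330 at 4 h (median 161, n = 7). The 3 libraries at 8 h held 22.8, 35.4 and 57.3 CPM, again without overlap with 4 h, a change of -2.37 ± 0.45 (adjusted p = 1.35e-05). On the vitrified-only plate the level went from 125 to 276 CPM at 1 h to 14.5 to 69.6 CPM at 8 h, a change of -2.27 ± 0.28 (adjusted p = 6.16e-11). No step before 4 h was called for Igf1 in either kind, with changes of -0.16 ± 0.27 and 0.33 ± 0.32 in fresh follicles; with total counts the first was -0.67 (adjusted p = 0.0458). The summed granulosa markers fell over the same interval as Igf1, from a median of 65565 CPM at 4 h to 14332 CPM at 8 h in fresh follicles and from 70122 to 16496 CPM in vitrified ones, and their part in the fall of Igf1, Igf1r and Pappa was not tested. Within the 4 h fresh group 2 libraries, at 352 and 399 CPM, stood above the other 5, which reached 201.

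Igf1r, the receptor, had another course: it rose at 1 h and again at 4 h, then fell by 8 h on the shared plate. Fresh follicles held 6.37 to 21 CPM at 0 h (median 12.7, n = 18), 16.2 to 62.2 at 1 h (median 28.9, n = 6) and 63.2 to 116 at 4 h (median 90.9, n = 7). At 8 h the 4 libraries held 10.3, 14.2, 14.6 and 23.2 CPM. The 4 h libraries lay above every fresh library of the other times. The changes were 1.25 ± 0.18 (adjusted p = 1.43e-08), 1.56 ± 0.22 (adjusted p = 7.62e-09) and -2.57 ± 0.27 (adjusted p = 6.54e-13). In vitrified follicles the level was 8.32 to 20.7 CPM at 0 h (median 13.1, n = 15), then 42.4, 42.9, 49.3, 49.7 and 61.3 at 1 h, then 61.2 to 122 at 4 h (median 89.9, n = 7), and 15.3, 17.7 and 22.2 at 8 h. These steps were 1.81 ± 0.19 (adjusted p = 1.29e-13), 0.88 ± 0.23 (adjusted p = 8.21e-04) and -2.29 ± 0.30 (adjusted p = 1.47e-09), and the groups of 0 h and 1 h did not overlap. The calls of these 6 steps held under every alternative run. The steps from 0 h to 1 h cross plates, and no alternative could separate time from plate there. From 1 h to 8 h on the shared plate Igf1r fell by 1.01 ± 0.26 in fresh (adjusted p = 8.24e-04) and by 1.4 ± 0.30 in vitrified follicles (adjusted p = 4.65e-05). Scaled by total counts the changes were -0.36 (adjusted p = 0.258) and -0.67 (adjusted p = 0.0514). With limma on log2(TPM + 1) they were -0.05 (adjusted p = 0.608) and -0.14 (adjusted p = 0.21). Mean Igf1r was 0.37 TPM at 1 h and 0.316 at 8 h in fresh follicles, and 0.495 and 0.349 in vitrified ones. The added 1 shrinks log2 changes at such low levels. Total counts, with no 1 added, also gave smaller falls than TMM, so the size of this fall depends on the scaling. On the vitrified-only plate the change from 1 h to 8 h was -0.15 ± 0.18 and not called (adjusted p = 0.504). With total counts it was 0.63 there (adjusted p = 0.0025).

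Pappa, the protease that cleaves IGFBP4 and IGFBP5, also rose up to 4 h. The fresh follicles held 1.8 to 19 CPM at 0 h (median 7.11, n = 18), 9.14 to 20.1 at 1 h (median 12.7, n = 6), and 26.2 to 77.7 at 4 h (median 37.6, n = 7), with no overlap between 1 h and 4 h. They held 15.7, 15.9, 17.4 and 22.3 CPM at 8 h, below every 4 h library. Its rise from 1 h to 4 h was 1.73 ± 0.35 in fresh (adjusted p = 2.55e-05) and 1.72 ± 0.37 in vitrified follicles (adjusted p = 6.13e-05). Vitrified libraries held 4.07 to 17.6 CPM at 0 h (median 6.53, n = 15), 8.67, 9.38, 13, 15.4 and 22.2 CPM at 1 h, 25.9 to 98.7 at 4 h (median 39.3, n = 7) and 18.7, 21.8 and 25.3 at 8 h. The fall from 4 h to 8 h was -1.29 ± 0.39 in fresh (adjusted p = 0.00546) and -1.03 ± 0.42 in vitrified follicles (adjusted p = 0.0457). Scaled by total counts the falls were -0.62 (adjusted p = 0.18) and -0.51 (adjusted p = 0.335), and without vitrified 8 h replicate 1, 2 or 3 of the shared plate the second was -0.9, -0.99 or -1.1, none called. Pappa was also called higher at 1 h than at 0 h, by 0.72 ± 0.30 in fresh (adjusted p = 0.0454) and 0.90 ± 0.32 in vitrified follicles (adjusted p = 0.0174), and with total counts these were 0.22 and 0.27 and not called. The fresh call was also lost with DESeq2 (0.66, adjusted p = 0.0781) and limma (0.07, adjusted p = 0.423), and the vitrified one with limma (0.07, adjusted p = 0.469). Limma ran on log2(TPM + 1), and mean Pappa was 0.134 TPM at 0 h and 0.188 at 1 h in fresh follicles. The added 1 shrinks log2 changes at such low levels. From 1 h to 8 h no change of Pappa was called, but with total counts it was higher by 1.09 in fresh (adjusted p = 0.0166) and 1.43 in vitrified follicles (adjusted p = 0.00414). Without vitrified 1 h replicate 4 of the shared plate, the vitrified change of Pappa from 0 h to 1 h was 0.67 (adjusted p = 0.117).

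Igfbp2 and Igfbp4 were lower at 4 h than at 1 h in both kinds of follicle. Igfbp2, a secreted binding protein, was highest at 1 h. In fresh follicles it held 6.83 to 34.8 CPM at 0 h (median 22.3, n = 18), 28.7 to 53.7 at 1 h (median 40.5, n = 6), 4.38 to 21.7 at 4 h (median 16.1, n = 7) and 5.16, 10.5, 12.1 and 18.1 at 8 h. The fall from 1 h to 4 h was -1.58 ± 0.33 (adjusted p = 3.82e-05), without overlap of the groups. In vitrified follicles it held 5.34 to 26.1 CPM at 0 h (median 14.6, n = 15), 20.4, 25.2, 33.6, 38.9 and 44.9 at 1 h, 3.88 to 15.3 at 4 h (median 7.03, n = 7), and 6.33, 8.28 and 15.8 at 8 h. This fall was -2.06 ± 0.35 (adjusted p = 8.75e-07), also without overlap. The rise from 0 h to 1 h was 0.84 ± 0.26 in fresh (adjusted p = 0.0056) and 1.02 ± 0.28 in vitrified follicles (adjusted p = 0.00188), and with total counts 0.35 and 0.41, neither called. Between 4 h and 8 h no change was called, at -0.30 ± 0.38 and 0.32 ± 0.43.

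Igfbp4, a substrate of PAPPA, held 10.7 to 222 CPM in fresh follicles at 0 h (median 38.9, n = 18) and 6.38 to 90.8 CPM in vitrified ones (median 23.6, n = 15). It held 25.8 to 121 CPM in fresh follicles at 1 h (median 80.9, n = 6) and 6.5 to 70.2 at 4 h (median 12.7, n = 7). The ranges overlapped through 2 libraries of 4 h, at 31.7 and 70.2 CPM, and the change was -1.72 ± 0.59 (adjusted p = 0.0127). In vitrified follicles the 5 libraries at 1 h held 24.9, 27.1, 28.2, 55.0 and 59.4 CPM and those at 4 h ran from 1.08 to 34.4 (median 11.1, n = 7), overlapping through the library at 34.4, a change of -1.58 ± 0.63 (adjusted p = 0.0323). Without vitrified 1 h replicate 1 or 3 that change was -1.38 (adjusted p = 0.084) or -1.43 (adjusted p = 0.0738), and with total counts -1.36 (adjusted p = 0.0871). The summed endothelial markers went from a median of 72.6 CPM at 1 h to 10.9 CPM at 4 h in fresh follicles and from 18.7 to 9.67 CPM in vitrified ones, and those of theca and stroma went from 7433 to 4260 CPM in fresh and from 4726 to 6237 CPM in vitrified ones. Their part in the falls of Igfbp4 and Igfbp5 was not tested. From 4 h to 8 h Igfbp4 was 2.28 ± 0.69 higher in vitrified follicles (adjusted p = 0.006), and 0.70 ± 0.65 in fresh ones, which was not called (adjusted p = 0.414). The 3 vitrified libraries at 8 h held 15.4, 44.4 and 130 CPM, and without replicate 2, the one at 130 CPM, the change was 1.22 (adjusted p = 0.262). It was 1.71 (adjusted p = 0.112) without the library of most endothelial markers in each group, and limma called the fresh change (1.52, adjusted p = 0.0293). The vitrified-only plate gave a rise of 1.14 ± 0.49 from 1 h to 8 h (adjusted p = 0.0377), from 14 to 116 CPM to 36.9 to 358 CPM.

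Igfbp5, which binds to the extracellular matrix, was the one binding protein of the set with its highest mean CPM at 8 h in both kinds of follicle, and its 4 fresh libraries ranged 1.71-fold at that time. Its change from 1 h to 8 h was 0.33 ± 0.55 in fresh (adjusted p = 0.64) and 1.38 ± 0.61 in vitrified follicles (adjusted p = 0.0553), neither called by edgeR. At 0 h the range was 9.3 to 217 CPM in fresh (median 56.3, n = 18) and 26.9 to 248 CPM in vitrified follicles (median 74.9, n = 15). At 8 h the fresh libraries held 109, 169, 182 and 188 CPM, all above the 15.2 to 83.9 CPM of 4 h (median 46.2, n = 7), a rise of 1.73 ± 0.53 (adjusted p = 0.00737). The 3 vitrified libraries held 127, 138 and 440 CPM against 28.1 to 96.9 at 4 h (median 48.3, n = 7), a rise of 2.09 ± 0.57 (adjusted p = 0.00216). Without replicate 2, at 440 CPM, this was 1.31 (adjusted p = 0.114). Without the library of most endothelial markers in each group, a choice made after seeing the data, it was 1.5 (adjusted p = 0.0742), and for fresh follicles the call remained. From 4 h to 8 h the endothelial sum had medians of 10.9 and 12.7 CPM in fresh and 9.67 and 18.7 CPM in vitrified follicles, and the theca and stroma sum 4260 and 2418 CPM and 6237 and 2279 CPM; their part in the rise of Igfbp5 was not tested. On the vitrified-only plate the 9 libraries at 8 h spanned 234 to 353 CPM, a narrow range beside 19.2 to 255 CPM at 1 h, and the rise was 1.87 ± 0.42 (adjusted p = 1.06e-04). Before that, Igfbp5 fell from 36.8 to 230 CPM at 1 h (median 126, n = 6) to its 4 h level in fresh follicles, by 1.4 ± 0.49 (adjusted p = 0.0154), and the change in vitrified follicles was -0.71 ± 0.51 and not called (adjusted p = 0.258). The call of a rise from 0 h to 1 h in fresh follicles, 0.93 ± 0.39 (adjusted p = 0.049), was 0.46 with total counts (adjusted p = 0.353), and it was also lost with DESeq2 (0.9, adjusted p = 0.0561) and limma (0.74, adjusted p = 0.131).

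Igfbp3, the main carrier of IGF1 in serum, had the widest range of the members among fresh follicles at each time. The fresh libraries at 0 h ran from 7.83 to 481 CPM, a 61.5-fold range with a median of 38 (n = 18), whereas Igf1r ranged 3.3-fold in the same libraries. In fresh follicles at later times it held 9.82 to 239 CPM at 1 h (median 92.7, n = 6), 6.83 to 87.7 at 4 h (median 14.3, n = 7) and 10.1, 26.7, 44.4 and 81.2 at 8 h, and no fresh step was called. In vitrified follicles it held 0.408, 16.2, 45.8, 79.5 and 202 CPM at 1 h, 2.91 to 34.8 at 4 h (median 6.42, n = 7) and 12.2, 15.8 and 33.5 at 8 h. The difference from 0 h to 1 h there was called, at 2.07 ± 0.84 (adjusted p = 0.0381), and was 1.14 (adjusted p = 0.338) without replicate 4, the library at 202 CPM, and 2.02 (adjusted p = 0.0674) without replicate 5. It was also not called with total counts (1.42, adjusted p = 0.159), without the low-count filter or with limma. The median endothelial sum was 10.2 CPM at 0 h and 18.7 CPM at 1 h in these groups, and its part in the difference was not tested. From 1 h to 4 h the vitrified change of -2.32 ± 1.05 was not called (adjusted p = 0.0644), though DESeq2 called it (-2.39, adjusted p = 0.0364). On the vitrified-only plate at 8 h, 5 libraries held 0.863 to 10.4 CPM and the other 4 held 138 to 255 CPM, with none between.

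**Figure D3:**
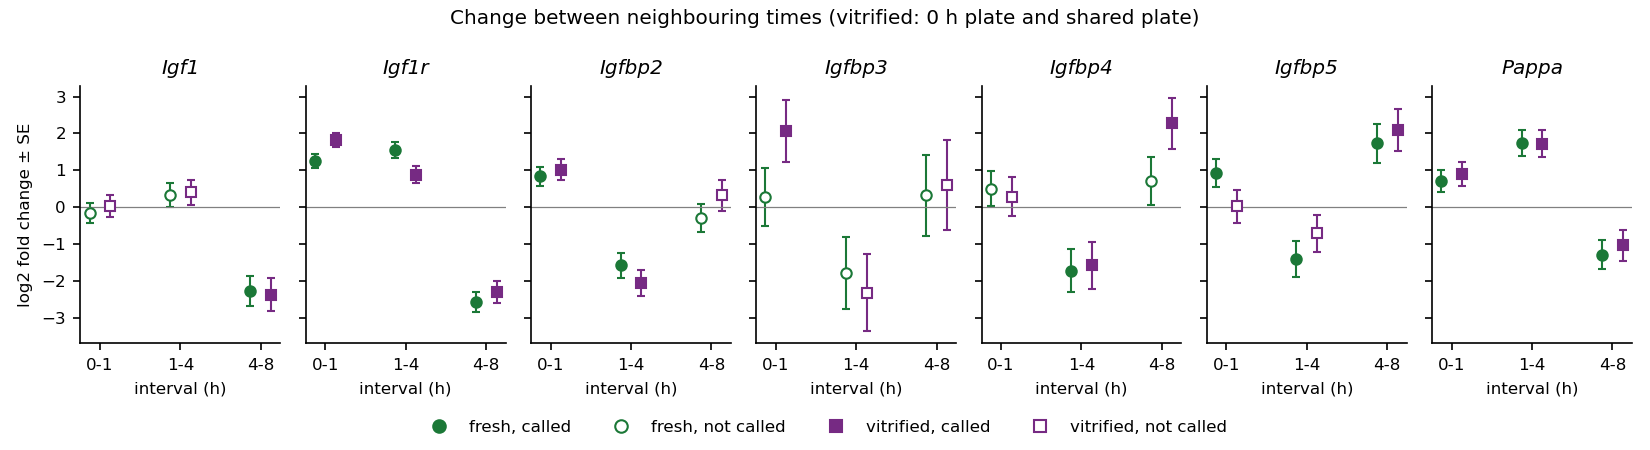
Log2 fold change ± SE of each member over the intervals 0 to 1 h, 1 to 4 h and 4 to 8 h, in fresh (circles) and vitrified (squares) follicles; filled symbols have an adjusted p under 0.05. Igf1r and Pappa rise over 2 intervals and fall over the third, and both kinds of follicle lie on the same side of 0 wherever both are called.

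Vitrified and fresh follicles differed in 1 of the 28 tests of a member at a time, that of Igfbp3 at 0 h. The share of all genes called was 0.967% at 0 h, 0.555% at 1 h, 0.118% at 4 h and 2.06% at 8 h. At 0 h Igfbp3 ran from 0 to 100 CPM in vitrified follicles with a median of 5.55 (n = 15), against a median of 38 in fresh ones. The difference was -2.49 ± 0.66 (adjusted p = 0.0392), and the groups overlapped, with 14 of 15 vitrified libraries at or below 35 CPM and 11 of 18 fresh libraries above it. It was not called without the low-count filter (-2.49, adjusted p = 0.0544), nor without the library of most theca and stroma markers in each group (-2.53, adjusted p = 0.0639) or of most endothelial markers (-2.27, adjusted p = 0.1). At the later times the Igfbp3 difference was -0.69 ± 1.05, -1.21 ± 1.01 and -0.94 ± 1.36, none called.

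No other member was called. Igf1 was -0.32 ± 0.20, -0.13 ± 0.34, -0.05 ± 0.30 and -0.15 ± 0.44 in vitrified minus fresh follicles at 0, 1, 4 and 8 h. For Igf1r the differences were 0.08 ± 0.15, 0.64 ± 0.23, -0.03 ± 0.20 and 0.25 ± 0.30; the one at 1 h had an unadjusted p of 0.00765 and an adjusted p of 0.259. Pappa differed by -0.12 ± 0.24, 0.06 ± 0.38, 0.04 ± 0.31 and 0.30 ± 0.45. Igfbp2 was lower at 0 h by 0.52 ± 0.21 on the log2 scale, with an adjusted p of 0.271 in counts, and limma on log2(TPM + 1) called this difference (-0.6, adjusted p = 0.00907), as it did without Gm10800 (-0.59, adjusted p = 0.0298). At 1, 4 and 8 h the Igfbp2 difference was -0.34 ± 0.34, -0.81 ± 0.35 and -0.19 ± 0.45; the one at 4 h had an unadjusted p of 0.022 and an adjusted p of 0.657. Igfbp4 and Igfbp5 reached an adjusted p of at least 0.458 at every time. The change over time was also compared between the 2 kinds of follicle, gene by gene. None of the 7 members was called in the 4 comparisons of a step, where 0.16% of all genes were called for 0 h to 1 h, 0.0421% for 1 h to 4 h, 0.993% for 4 h to 8 h and 2.49% for 1 h to 8 h. At an unadjusted p under 0.05, 1 member was past the threshold for 0 h to 1 h and 1 for 1 h to 4 h. In both cases this was Igf1r, at 0.56 ± 0.28 and -0.67 ± 0.31.

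**Figure D4:**
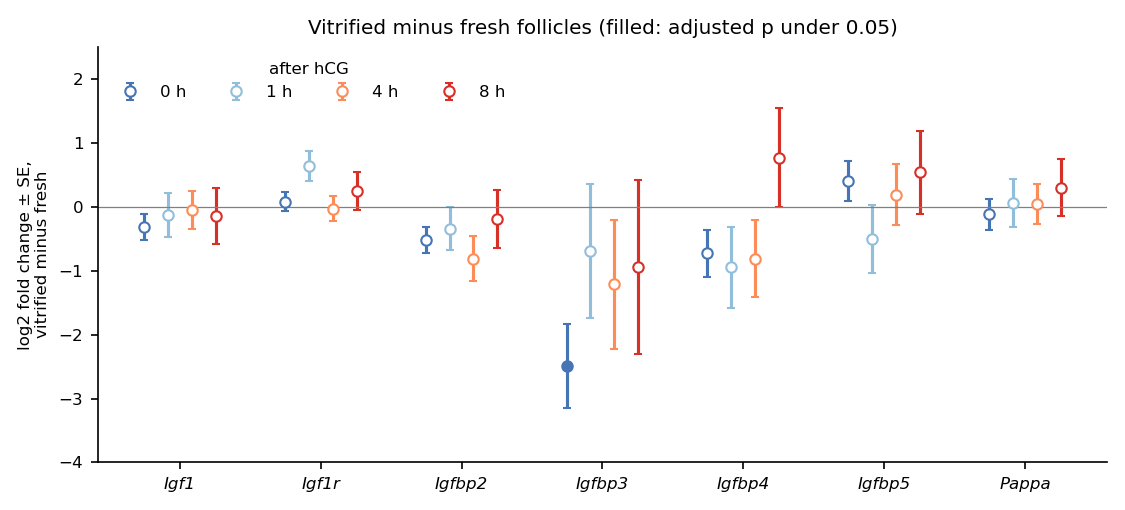
Log2 fold change ± SE of vitrified minus fresh follicles for each member at 0, 1, 4 and 8 h after hCG; the filled symbol has an adjusted p under 0.05. Igfbp3 at 0 h is the filled one, at -2.49, and Igf1 and Pappa lie within 0.32 of 0 at all 4 times.

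At 0 h, Igfbp3, Igfbp4 and Igfbp5 were higher in the follicles with more endothelial marker RNA. The 8 endothelial markers summed to 4.38 to 69.4 CPM in fresh follicles at 0 h (median 19.8, n = 18) and to 0.919 to 47.5 CPM in vitrified follicles (median 10.2, n = 15). The 8 immune markers summed to 1.37 to 99.1 CPM (median 14.3) and to 0 to 46.7 CPM (median 1.11), with Cd74 at 0 in every vitrified library. The 14 theca and stroma markers had a mean of 2644 ± 1455 CPM and 2191 ± 896 CPM (SD, n = 18 and 15). The group with lower Igfbp3 also had lower median endothelial and immune sums, and their part in the Igfbp3 difference was not tested. Within fresh follicles the Pearson correlation of log2 levels with the endothelial sum was 0.62 for Igfbp3, 0.73 for Igfbp4 and 0.64 for Igfbp5, with Spearman values of 0.57, 0.78 and 0.62. In vitrified follicles it was 0.74, 0.89 and 0.73, with Spearman values of 0.81, 0.87 and 0.81. Over the 12 relations computed, the permutation p of these 6 Pearson values ran from 1e-05, the smallest the resampling can give, to 0.00666, and the adjusted p from 1.20e-04 to 0.0133; the adjusted Spearman p ran from 6.00e-04 to 0.0296. Leaving out the 2 follicles farthest from the median of the endothelial sum lowered r to 0.37, 0.65 and 0.46 in fresh follicles. It left 0.76, 0.91 and 0.73 in vitrified ones. The fresh relations thus rest in part on the follicles with the most extreme sums, that of Igfbp3 most. With the theca and stroma sum the Pearson values were 0.31, 0.51 and 0.54 in fresh and 0.22, 0.60 and 0.33 in vitrified follicles, with adjusted permutation p of 0.248, 0.0411 and 0.0313 in fresh and 0.42, 0.0313 and 0.26 in vitrified follicles, in the order Igfbp3, Igfbp4, Igfbp5. The relation to this sum passed 0.05 for Igfbp4 in both kinds and for Igfbp5 in fresh follicles. The adjusted Spearman p was 0.111 and 0.0369 for Igfbp4 and 0.0451 for fresh Igfbp5. Without the 2 follicles farthest from the median of the theca and stroma sum these Pearson values were 0.25, 0.34 and 0.44.

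**Figure D5:**
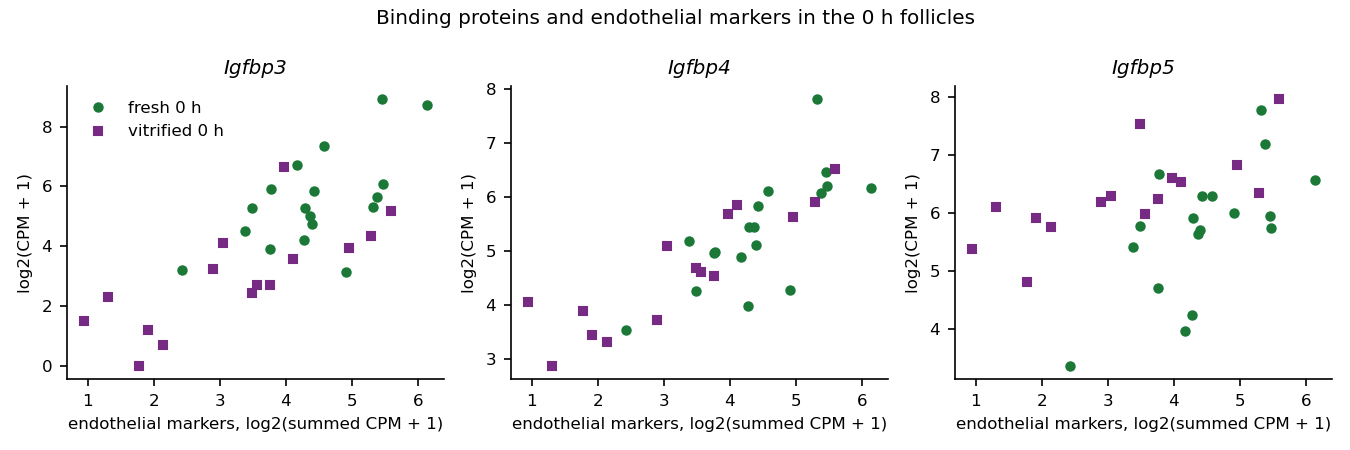
Igfbp3, Igfbp4 and Igfbp5 in single 0 h follicles, as log2(CPM + 1), against the summed CPM of 8 endothelial markers on the same scale; circles are fresh (n = 18) and squares vitrified (n = 15). Points rise from left to right in each panel, most tightly for Igfbp4 in vitrified follicles (r = 0.89).

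The 2 plates of vitrified follicles did not differ in the members by the test at 1 h, and differed in Igf1r and Pappa at 8 h. At 1 h, 1.37% of all genes and none of the members were called between plates, with Igf1r at a mean of 49.1 ± 7.6 CPM on the shared plate (SD, n = 5) and 49.2 ± 17 on the vitrified-only plate (SD, n = 9). At 8 h 23.4% of all genes were called, and Igf1r was 1.26 ± 0.28 higher on the vitrified-only plate (adjusted p = 3.49e-04). Its 9 libraries held 34.5 to 68.2 CPM (median 43.4), above the 15.3, 17.7 and 22.2 CPM of the shared plate. Pappa was lower there by 1.12 ± 0.38 (adjusted p = 0.0224), at 6.1 to 14.9 CPM (median 9.78), below the 18.7, 21.8 and 25.3 CPM of the shared plate. Without vitrified 8 h replicate 2 or 3 of the shared plate the Pappa difference was -1.14 (adjusted p = 0.0577) or -1.02 (adjusted p = 0.131). The step from 1 h to 8 h differed between plates for Igf1r by 1.26 ± 0.34 (adjusted p = 0.0102; 10.4% of all genes were called), and by 1.2 (adjusted p = 0.057) without replicate 3. On the vitrified-only plate itself the Igf1r change from 1 h to 8 h was -0.15 ± 0.18 and not called, and it was 0.63 (adjusted p = 0.0025) with total counts. This comparison of the step between plates was added after the data were seen. With the plates pooled and no plate term, Igf1r at 8 h was called higher in vitrified than in fresh follicles, by 1.28 (adjusted p = 7.54e-04), against 0.25 ± 0.30 on the shared plate.

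The genes most like each member over the 10 group means, other members left out, were found by the root mean square difference of centred log2 CPM. The nearest gene to Igf1 was Slfn14 at 0.166, followed by Gabrb2 at 0.29 and Inha, the inhibin alpha subunit of granulosa cells, at 0.341. Nearest to Igf1r were Zdhhc23, Glce and Atp13a3, at 0.214 to 0.235, and nearest to Pappa were Nop56, Timm8a1 and Rnf4, at 0.171 to 0.215. For Igfbp2 these were Susd6, Abhd16a and Col5a1 (0.244 to 0.252), for Igfbp4 Kbtbd11, Hspa2 and Eva1b (0.379 to 0.39), and for Igfbp5 Adcy3, Fam20a and Lgi3 (0.245 to 0.294). Igfbp3 had no gene closer than Cldn5, a tight junction protein of endothelium, at 0.493, followed by Plxnd1 at 0.515 and Gm7600 at 0.531. The mean levels of the members themselves ranged over 2.38 to 3.32 log2 units across these means, and all points share their libraries.

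Of 48 further genes of the pathway, 44 were in the table and 39 were tested. Between 0 h and 1 h 15 were higher and 6 lower in fresh follicles and 11 higher and 6 lower in vitrified ones, against 19% and 23.1% of all genes in fresh and 21.5% and 22% in vitrified follicles. The median log2 change was 0.40 and 0.13, against -0.11 and -0.05 over all genes. From 1 h to 4 h 3 were higher and 15 lower, and 4 higher and 15 lower, against 21.9% and 24.5%, and 20.6% and 25.9%, of all genes. The medians were -0.44 and -0.26, against -0.03 and -0.11. From 4 h to 8 h 7 were higher and 7 lower, and 9 higher and 8 lower, against 20.8% and 15.7%, and 22% and 15%. The medians were 0.29 and 0.40, against 0.12 and 0.17. Among the receptors, Insr, the insulin receptor, rose from a mean of 198 ± 35.4 CPM (SD, n = 18) at 0 h to 739 ± 278 at 1 h (SD, n = 6) in fresh follicles, a change of 1.90 ± 0.12 (adjusted p = 2.94e-24). In vitrified follicles it rose by 2.23 ± 0.14 (adjusted p = 2.94e-26). Its fall of 0.47 ± 0.18 from 4 h to 8 h in fresh follicles (adjusted p = 0.0336) was 0.15 in the other direction with total counts (adjusted p = 0.505). Igf2r, which carries IGF2 to lysosomes, fell from 45.0 ± 11.9 CPM at 1 h to 12.4 ± 4.53 at 4 h in fresh follicles (SD, n = 6 and 7), by 1.86 ± 0.23 on the log2 scale (adjusted p = 5.71e-11), and by 1.46 ± 0.23 in vitrified follicles (adjusted p = 1.11e-07).

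The insulin receptor substrates moved in opposite directions at 1 h. Irs1 fell from 708 ± 223 CPM (SD, n = 18) at 0 h to 167 ± 19.7 at 1 h, 43.3 ± 21.7 at 4 h and 18.4 ± 1.88 at 8 h in fresh follicles, with -2.08 ± 0.21 (adjusted p = 1.15e-14) for the first step. In vitrified follicles it fell from 731 ± 105 to 239 ± 80.5, 57.4 ± 7.73 and 27.6 ± 2.69 CPM. Irs2 rose from 2.91 ± 1.60 to 23 ± 5.14 CPM in fresh follicles, by 2.92 ± 0.26 (adjusted p = 3.29e-17), and from 2.5 ± 1.72 to 30.7 ± 16.7 CPM in vitrified ones, by 3.71 ± 0.29 (adjusted p = 3.95e-20). Grb14, an adaptor that inhibits the insulin receptor, fell from 389 ± 170 to 14.5 ± 4.98 CPM between 1 h and 4 h in fresh follicles, by 4.73 ± 0.30 (adjusted p = 2.44e-24), and by 5.26 ± 0.31 in vitrified ones (adjusted p = 4.68e-26). Foxo1, a transcription factor held out of the nucleus by AKT, fell by 2.70 ± 0.38 in the first hour in fresh follicles (adjusted p = 6.26e-09) and by 1.48 ± 0.38 in vitrified ones (adjusted p = 7.88e-04). At 1 h the 5 vitrified libraries had a median of 33.4 CPM and a highest value of 197, against a median of 28.9 in fresh follicles. The median on the vitrified-only plate at 1 h was 26 CPM. Adamts1, a matrix protease induced at ovulation, rose from 220 ± 71.8 to 5025 ± 1361 CPM in fresh follicles, by 4.52 ± 0.17 (adjusted p = 4.78e-41), and from 215 ± 48.9 to 7617 ± 823 CPM in vitrified ones, by 5.15 ± 0.19 (adjusted p = 1.22e-41).

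The other binding proteins and the second ligand were less regular. Igfbp6, which prefers IGF2, rose from 9.68 ± 4.30 to 31.2 ± 14.6 CPM between 0 h and 1 h in fresh follicles (1.65 ± 0.42, adjusted p = 9.41e-04) and fell again by 1.55 ± 0.55 at 4 h (adjusted p = 0.0156). In vitrified follicles these changes were 0.68 ± 0.50 (adjusted p = 0.279) and -0.39 ± 0.58 (adjusted p = 0.62), and neither step differed between the 2 kinds by the test (adjusted p = 0.843 and 0.836). Igf2 had a median of 0 CPM in fresh follicles at 0 h and at 4 h, with single libraries up to 24.9 and 247 CPM. Its call from 0 h to 1 h in fresh follicles (2.86 ± 1.13, adjusted p = 0.0346) was lost with DESeq2 (3.15, adjusted p = 0.179). Between vitrified and fresh follicles, 3 of the 39 genes were called at 0 h and 3 at 8 h, against 0.967% and 2.06% of all genes. None was called by edgeR at 1 h and 4 h, where 8 and 4 had an unadjusted p under 0.05 and 0.555% and 0.118% of all genes were called. At 0 h these were Pik3r1, a regulatory subunit of PI3-kinase (-0.70 ± 0.15, adjusted p = 0.00296), Grb14 (-0.60 ± 0.16, adjusted p = 0.0445) and the transcription factor Foxo3 (0.55 ± 0.12, adjusted p = 0.004). Grb14 was not called without the library of most theca and stroma markers in each group (-0.57, adjusted p = 0.0811) or of most endothelial markers (-0.57, adjusted p = 0.0688), and Foxo3 was not called with limma (0.23, adjusted p = 0.129).

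At 8 h they were Igfbp7, a low-affinity binding protein known from blood vessels, and the kinases Mtor and Gsk3b. The 3 vitrified libraries held 1.46 to 14.8 CPM of Igfbp7 and the 4 fresh ones 74.0 to 149, a difference of -4.05 ± 1.04 (adjusted p = 0.0194). Without vitrified 8 h replicate 1 or 3 it was -3.67 (adjusted p = 0.0961) or -3.54 (adjusted p = 0.227). The 9 libraries of the vitrified-only plate held 2.59 to 79.2 CPM (median 17). Mtor was higher by 1.31 ± 0.28 (adjusted p = 0.00331), and by 0.57 (adjusted p = 0.651) without replicate 3; the 3 vitrified libraries held 47.7, 48.5 and 148 CPM, the 4 fresh ones 29.7 to 38.5 and the 9 of the vitrified-only plate 38.1 to 58.5. Without the library of most theca and stroma markers in each group none of these 3 genes was called, at -3.63 for Igfbp7 (adjusted p = 0.204), 0.63 for Mtor (adjusted p = 0.575) and -0.94 for Gsk3b (adjusted p = 0.28). Gsk3b was lower by 1.16 ± 0.30 (adjusted p = 0.0167), with a mean of 14 ± 5.22 CPM (SD, n = 3) against 30.7 ± 5.69 in fresh follicles (SD, n = 4). The 9 libraries of the vitrified-only plate did not share this level, at 33.7 ± 10.4 CPM (20.4 to 48). With the plates pooled the Gsk3b difference was -0.1 (adjusted p = 0.871), and -0.3 (adjusted p = 0.782) with a plate term; with that term the Igfbp7 difference was -2.29 (adjusted p = 0.196). Without fresh 8 h replicate 4 the Gsk3b difference was -1.01 (adjusted p = 0.0849). Without vitrified 8 h replicate 2 or 3 the Gsk3b difference was -1.12 (adjusted p = 0.0737) or -0.89 (adjusted p = 0.334).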

How the data were processed

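Single-follicle total RNA was amplified by Smart-Seq2 and made into Nextera XT libraries, per the labels' protocols. The submitters' processing notes name Partek, Bowtie2, HISAT2, DESeq2 and the mm10 build, with no role or order; whether counting used strand is not given in these sources. The deposited estimated counts, which the authors gave per gene, were rounded to whole numbers. The deposited log2 values of the authors are log2(TPM + 1) per gene, as the deposited table is named, and the back-transformed values sum to the same total in every library; they were used for levels between genes and for limma. Groups were split by plate into 10 sets, and the plate was read from the library names. Counts were fitted with edgeR 4.0.16 (robust quasi-likelihood, TMM, filterByExpr with a minimum count of 10, 1 model over 83 libraries, Benjamini-Hochberg within each of 20 comparisons). Standard errors are the log2 change divided by the square root of F. CPM values are TMM-scaled. Correlations used 100000 permutations, two-sided (scipy 1.17.1). The rule for named genes covers each member, up to 5 called pathway genes per direction and comparison by size of change, any receptor, ligand or binding protein of the list, and the 3 genes most like each member. DESeq2 1.42.0 and limma 3.58.1 (R 4.3.3) were alternatives. Limma log2 changes are of TPM + 1, so they are smaller than changes of the level for low-TPM genes such as Igf1r and Pappa. The members, lists and markers were chosen with earlier results of these data known. In simulated counts for fresh 1 h to 4 h over 10754 genes, 34.3% of 106 genes changed by a log2 size of 1 and 73.8% of 94 changed by 2 were recovered. Depth was 682200 to 6504588 counts per library, and Igfbp3 had under 10 counts in 13 libraries.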

Additional observations from a re-analysis of the deposited data

Results flagged for a closer look

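Of 49 groups of members tested for a library far from the rest, 9 had one. The cutoff gives about 1 in 20 for independent, normally distributed values. CPM was not log-transformed here, each flagged library was the highest of its group, and the members share libraries. The 9 can therefore not be set against that rate. On the vitrified-only plate, a library stood apart for Igf1r at 8 h (68.2 CPM, the next at 48.9), for Igfbp2 at 1 h (59.0, the next at 38.6) and at 8 h (37.1, the next at 19.7), for Igfbp4 at 8 h (358, the next at 128), for Igfbp5 at 1 h (255, the next at 131) and for Pappa at 1 h (43.2, the next at 18.9). At 4 h, the highest fresh library of Igfbp4 held 70.2 CPM, with the next at 31.7. In vitrified follicles at 4 h the highest library of Igfbp4 held 34.4 CPM, with the next at 15.5, and that of Pappa held 98.7 CPM, with the next at 45.4.

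The step from 1 h to 8 h differed between vitrified and fresh follicles for 3 genes of the pathway list. The difference was -4.68 for Igfbp7 (adjusted p = 0.016), 1.64 for Mtor (adjusted p = 0.0031) and -1.62 for Gsk3b (adjusted p = 0.00399), from edgeR's quasi-likelihood test. With the plates pooled the values were -2.36 for Igfbp7 (adjusted p = 0.147) and -0.33 for Gsk3b (adjusted p = 0.69), and with a plate term -2.43 (adjusted p = 0.152) and -0.4 (adjusted p = 0.604). The Mtor value was 1.21 (adjusted p = 0.0912) without the library of most theca and stroma markers in each group. The first values rest on 3 vitrified libraries at 8 h: without replicate 3 of them the values were -4.16 (adjusted p = 0.127), 0.93 (adjusted p = 0.28) and -1.33 (adjusted p = 0.0794). For Igfbp7 the value was also -3.57 (adjusted p = 0.137) without vitrified 1 h replicate 4 and -4.3 (adjusted p = 0.0826) without vitrified 8 h replicate 1. For Igf1r the step from 1 h to 8 h differed by 1.26 between the 2 plates of vitrified follicles (adjusted p = 0.0102).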

How the results depend on the processing

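The alternatives were other scalings, no low-count filter, unrounded counts, DESeq2, limma on log2(TPM + 1), other treatments of the plates, and each library of the groups of 3 to 5 left out in turn; those without Gm10800 and without the libraries of most theca and stroma or endothelial markers were chosen after seeing the data. No paired analysis was possible because replicate numbers follow accession order and pair nothing. The 32 calls over steps in both kinds of follicle were 24 to 36 in number under every alternative, and there were 4 on the vitrified-only plate under each, not always of the same genes: with total counts, limma and limma without Gm10800 Igfbp2 was not called and Igf1r was. The 1 call between vitrified and fresh follicles became 0 with no low-count filter and without the library of most theca and stroma or of most endothelial markers, and 2 with limma on log2(TPM + 1), with limma without Gm10800 and with the plates pooled. The 0 calls between steps became 1 with the plates pooled. The 2 calls between plates became 1 with limma without Gm10800 and without the library of most theca and stroma or of most endothelial markers, and ranged from 1 to 2 when single libraries were left out.

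Reversed values, with the cause not tested, were those of Igf1r from 1 h to 8 h on the vitrified-only plate (0.63 with total counts, 0.35 with limma and 0.31 without Gm10800, all called), Insr in fresh follicles from 4 h to 8 h (0.15, 0.29 and 0.12 in the same order, none called), Igf2r (0.01) and Pik3r1 (0.09) for that step with limma, and Mtor between plates at 8 h (0.02) without the library of most theca and stroma markers. Igf1 from 1 h to 8 h in vitrified follicles was -0.8 and not called with limma (adjusted p = 0.0817), and the fall of Igfbp2 from 1 h to 8 h on the vitrified-only plate was -0.29 with total counts, -0.05 with limma and -0.2 with limma without Gm10800, none called. Igfbp5 from 1 h to 8 h in vitrified follicles missed the threshold (1.38, adjusted p = 0.0553) and passed it under 13 alternatives (1.36 to 2.16). Depth limits Igfbp3, Igfbp2 and Pappa most, with under 10 counts in 13, 7 and 7 libraries.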
